A study of Mus musculus with 16 samples.

Results

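RNA-seq was performed in WT mIMCD3 cells, which are mouse kidney epithelial cells grown as a line and derived from the deepest part of the collecting duct, to ask what remains of the response to sulforaphane (SFN) late in hyperosmotic stress. Cells that had received SFN or its solvent DMSO were compared after 6 h in hypertonic medium, with 2 libraries per treatment, so that 4 of the 16 libraries of the series entered the comparison. All genes that passed an expression filter were followed, 18959 of the 55367 genes counted. The other WT libraries were DMSO and SFN pairs under isosmotic conditions and after 1 h of stress, and they give the earlier response of the same genes. The last 4 libraries, from Nrf2-knockout cells given SFN, were set aside because the 1 h pair of that genotype varied far more than any WT pair.

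The groups were WT cells of 1 line, given DMSO or 10 µM SFN for 5 h and then moved to medium of 600 mOsm for 6 h. Whether SFN stayed in the hypertonic medium is not given in the sources used here. Isosmotic cells sampled at a matched late time were not analysed here, so the time since SFN was added and the duration of the stress cannot be told apart. The study described its RNA-seq libraries as 2 biological replicates, and p-values measure the spread between these libraries.

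SFN is an isothiocyanate that modifies cysteines of Keap1, the protein that otherwise marks the transcription factor Nrf2 for degradation. Stabilised Nrf2 pairs with small Maf proteins at antioxidant response elements (AREs) and drives genes for glutathione synthesis, thioredoxin reduction, conjugation and export of electrophiles, NADPH supply, and heme and iron handling. Cells of the inner medulla live in a hypertonic interstitium, where NFAT5 drives the genes that accumulate compatible osmolytes.

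The 4 libraries held 35417561 to 37915285 counts and detected 24274 to 25115 genes. Among genes with 1 to 10 counts, 63.2% to 64.6% had an even count, and small counts may therefore overstate the number of fragments seen. At 6 h the DMSO pair had a biological coefficient of variation of 0.0644 and the SFN pair of 0.0835, against 0.111 and 0.128 for the isosmotic DMSO and SFN pairs. Of 25 collecting duct and epithelial markers, 15 had a mean of at least 10 counts over the 4 libraries, and the summed level of all 25 was 5639 and 5706 CPM (counts relative to the TMM-scaled library total) with DMSO and 5318 and 5623 CPM with SFN. Tfap2b, Elf5, Aqp4 and Scnn1g were at 0 in all 4 libraries, and Aqp2, the vasopressin-regulated water channel, had 3 to 11 counts. The 4 podocyte markers summed to 57.0 to 65.7 CPM and the 7 proximal tubule markers to 21.4 to 27.8 CPM. The 7 leukocyte markers summed to 17.7 to 21.2 CPM and the 7 fibroblast markers to 5.32 to 7.72 CPM. No tested marker of the 8 cell type lists, 17 of them from the collecting duct list, was called different in the fit of the 12 WT libraries. With 0.243% of all genes called, a count of 0 is near the background. A collecting duct marker was called lower in 1 of 12 alternative fits.

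At 6 h, 36 of the 18959 genes (0.19%) were higher and 10 (0.0527%) lower with SFN than with DMSO at an adjusted p under 0.05 in edgeR's quasi-likelihood test, and these 46 genes (0.243%) are referred to as called. The higher genes were led by enzymes of conjugation, quinone and aldehyde metabolism, NADPH supply and heme breakdown, and their log2 fold changes ran from 0.30 to 1.53 with a median of 0.55. Gsta2, Nqo1, Gsta4 and Adh7 differed at least 2-fold. The 10 lower genes lay between -0.31 and -0.78, and 0 of them differed 2-fold. In each of the 46 genes both SFN libraries lay on the same side of both DMSO libraries, which held upward for 21.8% and downward for 19.8% of all genes tested. At an unadjusted p under 0.05, 1657 genes (8.74%) differed. In bulk RNA, fewer cells of a type and less RNA per cell cannot be told apart.

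**Figure D1:**
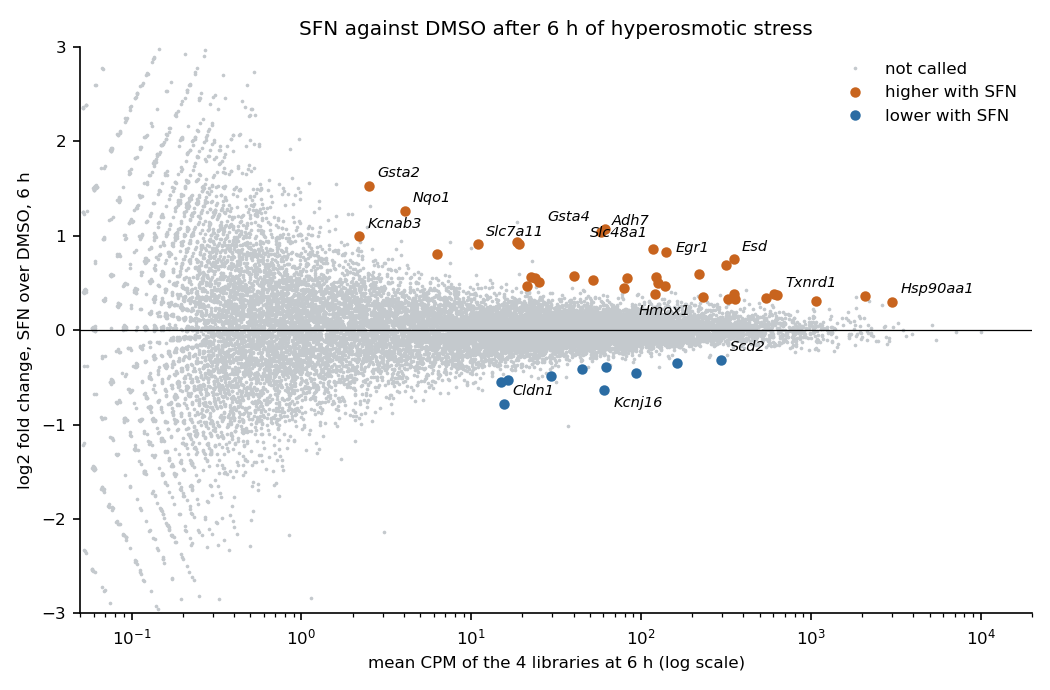
Each point is a gene, with its mean CPM over the 4 libraries at 6 h on a log axis and its log2 fold change of SFN over DMSO. The 36 called higher genes (orange) reach 1.53 and the 10 called lower genes (blue) reach -0.78, while uncalled genes (grey) spread widely at low CPM; 298 genes, 0 of them called, lie outside the axes.

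The number of calls rested on the libraries. With the DMSO replicate 2 library left out it was 10, and with DMSO replicate 1, SFN replicate 1 or SFN replicate 2 left out it was 21, 16 and 17. With all 16 libraries in the fit, 8 genes were called, namely Adh7, Slc48a1, Esd, Gsta4, Gclm, G6pdx, Gsta1 and Srxn1. These 8 were called in all of the 12 alternative fits, and each of the other 38 lost its call in at least 1, while all 46 kept their sign in every one.

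Proximal promoters of 4 of the called antioxidant genes are shown as examples of windows that hold the element through which Nrf2 acts. The 4 genes are among the 21 called higher at all 3 samplings, and were picked for display with the motif known. They are the 250 bases before a RefSeq transcription start on GRCm38.p6, written 5′ to 3′ along the gene, with the ARE core (TGACNNNGC or TGAGNNNGC, read on either strand) in capitals. The windows are chr2:152105274-152105523 (plus strand) for Srxn1, chr10:82858956-82859205 (plus) for Txnrd1, chr3:50443614-50443863 (minus) for Slc7a11 and chr3:122245307-122245556 (plus) for Gclm.
Srxn1: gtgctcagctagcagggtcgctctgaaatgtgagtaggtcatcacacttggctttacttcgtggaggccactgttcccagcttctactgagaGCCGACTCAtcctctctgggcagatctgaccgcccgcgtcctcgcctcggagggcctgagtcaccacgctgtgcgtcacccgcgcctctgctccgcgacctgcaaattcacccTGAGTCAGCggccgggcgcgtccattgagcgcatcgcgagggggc
Txnrd1: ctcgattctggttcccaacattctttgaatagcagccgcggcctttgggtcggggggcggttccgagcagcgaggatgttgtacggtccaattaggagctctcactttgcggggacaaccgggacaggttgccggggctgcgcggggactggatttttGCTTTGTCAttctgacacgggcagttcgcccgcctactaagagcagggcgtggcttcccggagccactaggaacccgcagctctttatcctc
Slc7a11: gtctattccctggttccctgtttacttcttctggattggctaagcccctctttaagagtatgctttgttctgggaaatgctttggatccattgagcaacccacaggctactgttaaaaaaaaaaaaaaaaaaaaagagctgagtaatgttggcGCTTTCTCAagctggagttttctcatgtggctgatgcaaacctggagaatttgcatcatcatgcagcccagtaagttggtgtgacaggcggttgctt
Gclm: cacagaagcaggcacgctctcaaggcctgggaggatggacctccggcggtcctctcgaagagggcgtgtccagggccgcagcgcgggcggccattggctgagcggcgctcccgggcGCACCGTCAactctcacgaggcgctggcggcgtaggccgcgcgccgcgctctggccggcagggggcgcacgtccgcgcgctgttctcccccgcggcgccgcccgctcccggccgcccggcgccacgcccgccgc

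A promoter reaching from 250 bases before to 50 after a start was found for 33 of the 46 called genes. The ARE core stood in 13 of the 26 higher genes with a promoter (50%) and in 4 of the 7 lower genes (57.1%), against 35.2% of the 12126 tested genes with a promoter. The AP-1 sequence TGAGTCA, which can overlap the ARE core, stood in 4 of the 26 higher genes (15.4%), in 0 of the 7 lower genes and in 5.03% of tested genes. A match gives letters in a window and not a bound site.

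Glutathione S-transferases couple glutathione to electrophiles, and 3 of 23 tested members were called higher at 6 h and 0 lower. Over all genes 0.19% were called higher and 0.0527% lower at 6 h, the shares to set beside this list and those that follow. The median log2 fold change was 0.32 over the list against 0.007 over all genes. Isosmotic, 3 members had been higher and 3 lower, beside 8.28% and 6.88% of all genes. Gsta4, which handles the lipid peroxidation product 4-hydroxynonenal, measured 42.0 and 37.3 CPM in the DMSO libraries and 82.1 and 84.9 CPM in the SFN libraries. Both SFN libraries lay above both DMSO libraries, at a log2 fold change of 1.07 (SE 0.096, edgeR adjusted p = 2.54e-06). The SFN difference of Gsta4 was 0.87 under isosmotic conditions and 1.04 at 1 h, and the test of the difference between 6 h and either sampling did not pass the threshold. Gsta1 measured 12.6 and 12.9 CPM with DMSO and 25.0 and 23.9 CPM with SFN (log2 fold change 0.94, SE 0.11, edgeR adjusted p = 0.000142). Gsta2 went from 1.37 and 1.21 to 3.78 and 3.68 CPM, the largest called change at 1.53 on the log2 scale (SE 0.27, edgeR adjusted p = 0.0170). Gsta4 (chr9:78182774-78209349, plus strand), Gsta1 (chr9:78230656-78242684, plus) and Gsta2 (chr9:78331018-78355788, minus) lie in 1 cluster on GRCm38 by GENCODE M21. Gsta1 and Gsta2 are close paralogs whose reads the counting could split, so their separate values are uncertain.

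Of 19 tested enzymes of quinone, aldehyde and epoxide detoxification, 3 were called higher and 0 lower at 6 h. Isosmotic, 5 had been higher and 2 lower. Adh7 (chr3:138217760-138233382, plus strand), an alcohol dehydrogenase that oxidises retinol and other alcohols, had the smallest p at 6 h, with 38.6 and 37.1 CPM under DMSO and 79.4 and 76.8 CPM under SFN (log2 fold change 1.04, SE 0.074, edgeR adjusted p = 1.96e-07). Its difference had been 1.01 isosmotic and 1.18 at 1 h. Esd, the esterase that finishes glutathione-dependent formaldehyde detoxification, measured 253 and 270 CPM against 437 and 443 CPM (log2 fold change 0.75, SE 0.064, edgeR adjusted p = 1.81e-06). In both genes the 2 SFN libraries lay close together and well above DMSO. Nqo1, the quinone reductase used as a standard readout of Nrf2, was low in this line, at 2.71 and 2.05 CPM with DMSO and 6.35 and 5.09 CPM with SFN (log2 fold change 1.27, SE 0.24, edgeR adjusted p = 0.0237), and its call was lost with any 1 of the 4 libraries left out.

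NADPH pays for both the glutathione and the thioredoxin systems, and the 2 called members of 12 NADPH-producing enzymes were those of the oxidative pentose phosphate pathway. Pgd, the 6-phosphogluconate dehydrogenase, measured 234 and 251 CPM with DMSO and 385 and 395 CPM with SFN (log2 fold change 0.69, SE 0.062, edgeR adjusted p = 2.93e-06). G6pdx, the glucose-6-phosphate dehydrogenase at the entry of the pathway, measured 101 and 95.0 CPM against 145 and 145 CPM (log2 fold change 0.57, SE 0.062, edgeR adjusted p = 4.16e-05). The earlier differences of G6pdx were 0.51 isosmotic and 0.45 at 1 h, and those of Pgd 0.66 and 0.88. Exons of G6pdx overlap those of Ikbkg, the regulatory subunit of the NF-kB activating kinase, over 418 bases on the opposite strand. Ikbkg was also called, from 16.9 and 18.7 to 25.9 and 23.5 CPM (log2 fold change 0.47, SE 0.099, edgeR adjusted p = 0.0483). Without a stated strand setting the reads of this overlap cannot be told apart.

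Heme and iron handling had 3 called genes of 17 tested at 6 h, all higher, where 7 had been higher and 2 lower isosmotic. Slc48a1, the transporter that brings heme out of endolysosomes, measured 77.1 and 88.9 CPM with DMSO and 147 and 154 CPM with SFN (log2 fold change 0.86, SE 0.073, edgeR adjusted p = 1.81e-06). Its difference had been 1.08 isosmotic and 1.05 at 1 h. The test of the change from either sampling to 6 h did not pass the threshold (edgeR adjusted p = 0.288 and 0.900). Blvrb, a biliverdin reductase, measured 14.1 and 12.2 CPM against 24.7 and 24.8 CPM (log2 fold change 0.91, SE 0.13, edgeR adjusted p = 0.000943). Hmox1, the heme oxygenase between the steps served by those proteins, behaved differently over time. At 6 h it measured 102 and 107 CPM with DMSO and 134 and 138 CPM with SFN, a log2 fold change of 0.38 (SE 0.072, edgeR adjusted p = 0.0259), where it had been 2.05 isosmotic and 2.28 at 1 h. The difference at 6 h was smaller than at either earlier sampling, by 1.67 and 1.90 on the log2 scale (edgeR adjusted p = 1.15e-09 and 1.33e-09). Ftl2-ps, a pseudogene of the ferritin light chain whose reads cannot be separated safely from its parent, was called at 0.39 (SE 0.074, edgeR adjusted p = 0.0262).

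Glutathione synthesis and cystine uptake kept part of the earlier difference. Of 11 tested genes 2 were called higher at 6 h, where 4 had been called higher at each earlier sampling and 1 lower isosmotic. Gclm, the modifier subunit of the rate-limiting glutamate-cysteine ligase, measured 171 and 180 CPM with DMSO and 268 and 261 CPM with SFN at 6 h (log2 fold change 0.59, SE 0.064, edgeR adjusted p = 3.55e-05). Its level in the SFN libraries had been 389 and 434 CPM isosmotic and 384 and 397 CPM at 1 h, while the DMSO libraries lay between 168 and 180 CPM throughout. The Gclm difference at 6 h was smaller than isosmotic by 0.64 and smaller than at 1 h by 0.61 (edgeR adjusted p = 0.000104 and 0.00425). Slc7a11, the cystine importer, measured 8.09 and 7.04 CPM with DMSO and 15.04 and 13.5 CPM with SFN (log2 fold change 0.91, SE 0.15, edgeR adjusted p = 0.00545), down from differences of 2.41 and 2.33.

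Gclc, the catalytic subunit of the same ligase, was not called at 6 h. It measured 143 and 152 CPM with DMSO and 166 and 156 CPM with SFN (log2 fold change 0.12, SE 0.071, edgeR adjusted p = 0.661). Isosmotic DMSO libraries held 78.0 and 72.5 CPM and isosmotic SFN libraries 170 and 191 CPM, so the late SFN level lay near the early one and the late DMSO level near it too. In DMSO cells Gclc was 0.97 higher on the log2 scale after 6 h of stress than before it (edgeR adjusted p = 5.25e-10). The SFN difference at 6 h was smaller than isosmotic by 1.14 and smaller than at 1 h by 1.08 (edgeR adjusted p = 2.41e-07 and 7.34e-06).

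Of 12 tested thioredoxin, peroxiredoxin and sulfiredoxin genes, Srxn1 and Txnrd1 were called higher at all 3 samplings, and 2 other members had been lower isosmotic. Srxn1, the sulfiredoxin that repairs overoxidised peroxiredoxins, measured 69.8 and 64.2 CPM with DMSO and 101 and 95.7 CPM with SFN at 6 h (log2 fold change 0.55, SE 0.068, edgeR adjusted p = 0.000200). The SFN libraries had held 213 and 199 CPM isosmotic and 196 and 198 CPM at 1 h. Txnrd1, the cytosolic thioredoxin reductase, measured 543 and 561 CPM against 723 and 705 CPM at 6 h (log2 fold change 0.37, SE 0.054, edgeR adjusted p = 0.00173). For both genes the SFN libraries at 6 h still lay above the DMSO libraries, and below every SFN library of the earlier samplings. The difference between the 6 h and 1 h effects was -1.25 for Srxn1 and -0.80 for Txnrd1 (edgeR adjusted p = 3.84e-07 and 8.55e-06).

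**Figure D2:**
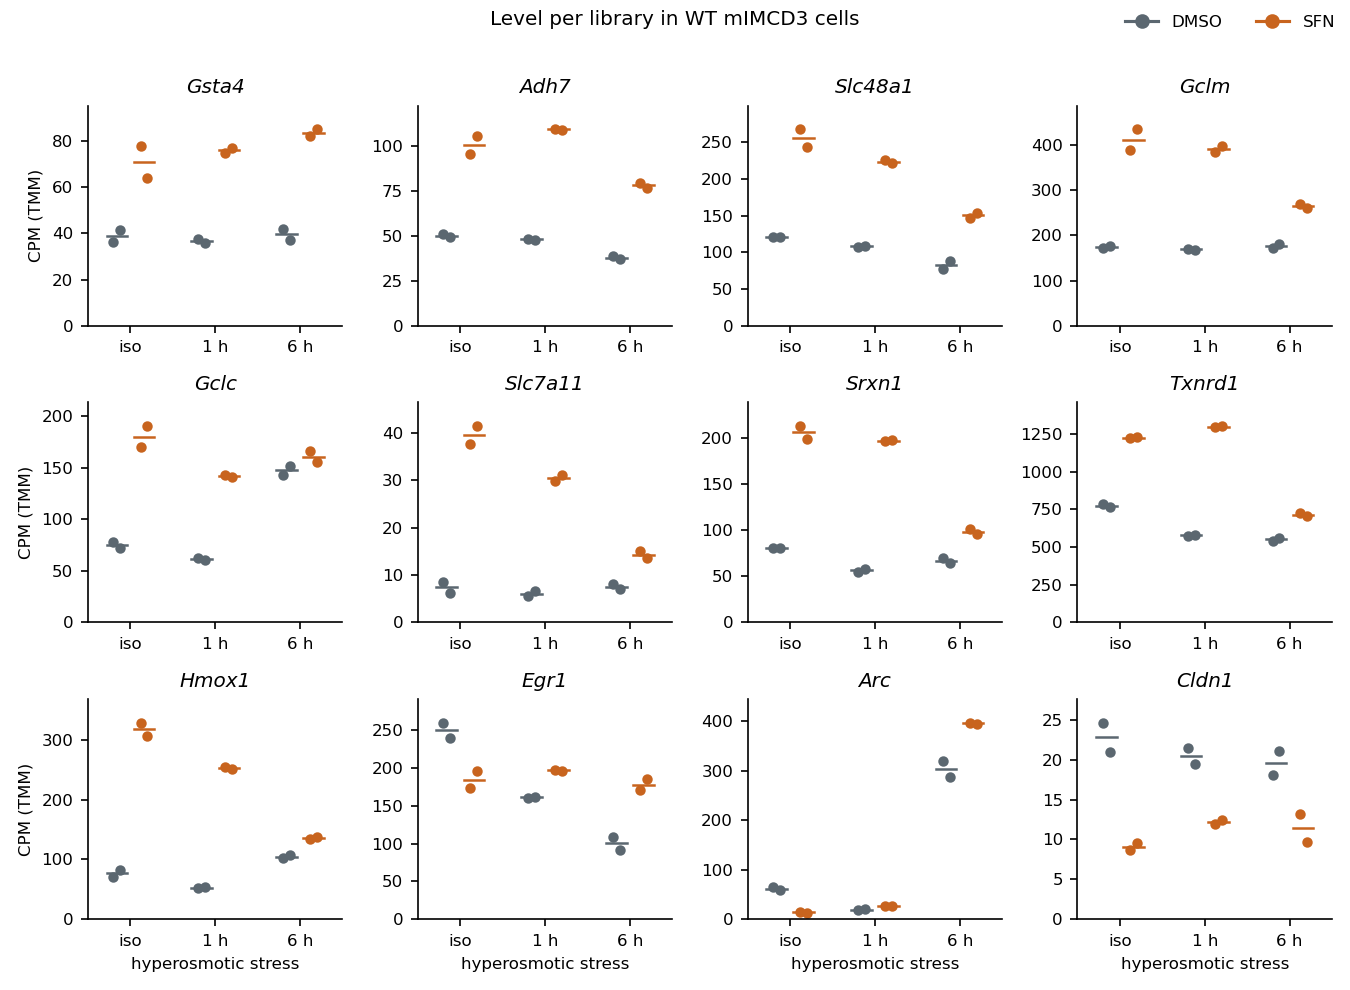
Level in CPM of 12 genes in each WT library (points, mean as a bar) by treatment and sampling, each panel on its own linear axis from 0. On the log2 scale Gsta4 and Adh7 keep their separation at 6 h, and Slc48a1, Gclm, Slc7a11, Srxn1, Txnrd1 and Hmox1 keep a smaller one. The change over time was not called for Slc48a1. Gclc has 143 to 166 CPM in the 4 libraries at 6 h, and Egr1 and Arc change the order of the treatments between isosmotic conditions and 6 h.

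Single members of 4 other protective systems were called higher. Cat, the peroxisomal catalase, measured 42.8 and 41.9 CPM with DMSO and 61.3 and 61.1 CPM with SFN (log2 fold change 0.53, SE 0.077, edgeR adjusted p = 0.00173). Abcc1, an exporter of glutathione conjugates, measured 316 and 313 CPM against 405 and 387 CPM (log2 fold change 0.33, SE 0.066, edgeR adjusted p = 0.0355). Sqstm1, the autophagy receptor p62 that can sequester Keap1, measured 478 and 475 CPM against 584 and 625 CPM (log2 fold change 0.34, SE 0.064, edgeR adjusted p = 0.0231), with 580 exon bases shared with Mrnip on the opposite strand. Hsp90aa1, the stress-inducible cytosolic Hsp90, was called at 0.30 (SE 0.062, edgeR adjusted p = 0.0440), the smallest called increase, and was the 1 called member of 19 heat shock chaperones.

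The Nrf2 system itself showed no called change in its core pair at 6 h. Nfe2l2, which encodes Nrf2, measured 146 and 140 CPM with DMSO and 145 and 151 CPM with SFN (log2 fold change 0.05, SE 0.075, edgeR adjusted p = 0.916). Keap1 measured 23.7 and 23.2 CPM against 25.1 and 26.1 CPM (log2 fold change 0.13, SE 0.088, edgeR adjusted p = 0.732). The treatments overlapped for Nfe2l2, and for Keap1 the SFN libraries lay slightly above. In DMSO cells Nfe2l2 was 0.92 higher and Keap1 1.02 lower on the log2 scale after 6 h of stress than before it (edgeR adjusted p = 2.66e-09 and 3.30e-09).

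The comparison over time rests on separate libraries at each sampling, tied only by the shared estimate of spread. Before stress 1570 genes (8.28%) were higher and 1305 (6.88%) lower with SFN, and at 1 h 78 (0.411%) were higher and 23 (0.121%) lower. Leaving out 1 library at a time gave 1333 to 3701 calls isosmotic, the lowest without DMSO replicate 2, and 31 to 41 calls at 1 h, with a lower count whichever of the 4 was left out. The isosmotic balance turned in other fits, with 212 genes higher and 343 lower with all 16 libraries, 507 and 590 with only the 4 libraries compared, 607 and 726 without DMSO replicate 2, and 150 and 216 at 2-fold or more. Of the 36 genes higher at 6 h, 24 had also been higher isosmotic, which is 66.7% of the late list and 1.53% of the early one. Likewise 24 of them had been higher at 1 h, 66.7% of the late list and 30.8% of the genes raised at 1 h. Both earlier calls were held by 21 genes. Gsta2 had been called at 1 h alone, and Kcnab3, a potassium channel beta subunit at 1.43 and 1.49 CPM with DMSO and 2.78 and 3.05 CPM with SFN, at neither.

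Genes raised earlier were more often above than below 0 at 6 h, and more so when raised at 1 h than isosmotic. They were chosen for passing the threshold at the earlier sampling, which raises their earlier medians, so a smaller median at 6 h is in part built into the choice and is given as a description. Among the 15 genes raised at least 2-fold at 1 h, 10 were still called at 6 h, 14 had a positive log2 fold change, and the median went from 1.35 to 0.59. Among all 78 the median went from 0.54 to 0.20, and 68 stayed positive. Among the 1570 genes raised isosmotic the median went from 0.41 to 0.051, with 65.3% positive, where 51.3% of all genes tested were positive and 48.5% negative. Of the 150 raised at least 2-fold isosmotic, 8 were called higher at 6 h and 60% were positive. Their median went from 1.82 to 0.095. The signed SFN effect was lower at 6 h than isosmotic in 387 genes (2.04%) and higher in 416 (2.19%), and against 1 h it was lower in 13 (0.0686%) and higher in 1 (0.00527%). Of the 387 genes 351 had been raised isosmotic and of the 416 genes 399 had been lowered isosmotic. All 13 had been raised at 1 h. The earlier libraries entered both calls. The split against 1 h depended on the fit, with 10 higher and 24 lower in DESeq2 and 15 and 24 without a filter. It was 34 and 44 with the 8 hyperosmotic WT libraries, 0 and 2 with all 16, and 1 and 13 with RLE size factors. More genes were lower than higher against isosmotic in 3 other fits, with 500 higher and 532 lower in DESeq2, 561 and 613 without a filter, and 557 and 819 without isosmotic DMSO replicate 1.

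**Figure D3:**
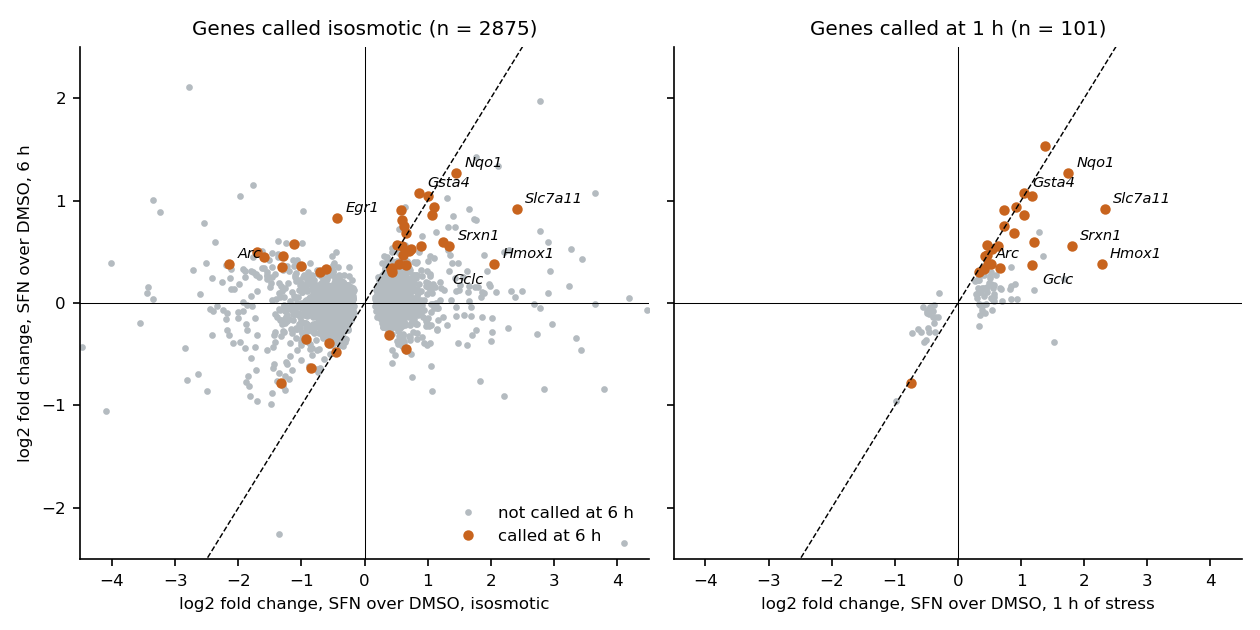
Log2 fold change of SFN over DMSO at 6 h (vertical) against the isosmotic (left, 2875 called genes) and 1 h (right, 101 called genes) fold change, with genes also called at 6 h in orange and equality as a dashed line. Gsta4 lies near the line in both panels, Srxn1, Slc7a11, Hmox1 and Gclc lie below it, and Arc and Egr1 were lower isosmotic and higher at 6 h; 47 genes of the left panel lie outside its axes.

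Another set of the late calls pointed the other way before stress. Of the 36 genes higher at 6 h, 10 had been lower with SFN under isosmotic conditions: Egr1, Kctd11, Dusp5, Ccn1, Errfi1, Rgs16, Arc, Ptgs2, Tmcc3 and Trib1. The effect was larger at 6 h than isosmotic in each of the 10. These genes were chosen by their opposite calls at those samplings, so a larger effect at 6 h is built into the choice. The difference is given as a description and no further result. Several of the 10 are immediate-early or feedback genes of growth factor and MAP kinase signalling.

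Egr1, a zinc finger transcription factor induced by MAP kinase signalling, measured 260 and 239 CPM with DMSO and 173 and 196 CPM with SFN before stress. At 6 h it measured 109 and 91.7 CPM with DMSO and 171 and 185 CPM with SFN (log2 fold change 0.83, SE 0.081, edgeR adjusted p = 7.72e-06). The SFN level thus lay in a like range at both samplings and the DMSO level fell by 1.32 on the log2 scale. Its call at 6 h was lost with all 16 libraries in the fit (edgeR adjusted p = 0.521), and held in the other 11 alternatives.

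Dusp5, a nuclear ERK phosphatase, measured 122 and 109 CPM with DMSO and 153 and 167 CPM with SFN at 6 h (log2 fold change 0.46, SE 0.076, edgeR adjusted p = 0.00692), against an isosmotic difference of -1.29 and a 1 h difference of 0.43. Dusp5 shares 547 exon bases with an antisense transcript. Arc, an activity-regulated immediate-early gene, measured 319 and 288 CPM against 398 and 395 CPM (log2 fold change 0.38, SE 0.077, edgeR adjusted p = 0.0378), against -2.15 isosmotic and 0.47 at 1 h. The Dusp5 call held in 9 of 12 alternative fits and the Arc call in 7. Of the 28 tested immediate-early genes, Egr1, Dusp5 and Arc were called higher at 6 h and none lower. Isosmotic 23 had been lower, at 1 h 5 had been higher, and 23 had a larger effect at 6 h than isosmotic. The shares over all genes were 0.19% higher at 6 h, 6.88% lower isosmotic, 0.411% higher at 1 h and 2.19% with a higher effect at 6 h than isosmotic.

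Ptgs2, the inducible cyclooxygenase that protects medullary cells through prostaglandins, was far higher in stressed than in isosmotic DMSO cells and higher again with SFN, at 1847 and 1799 CPM with DMSO and 2437 and 2244 CPM with SFN (log2 fold change 0.36, SE 0.074, edgeR adjusted p = 0.0429). Rgs16, a regulator of G protein signalling, measured 103 and 104 CPM against 137 and 157 CPM (log2 fold change 0.50, SE 0.096, edgeR adjusted p = 0.0260). In this fit of the 12 WT libraries, Rgs16 was the 1 gene whose SFN effect was larger at 6 h than at 1 h. The difference was 0.91 on the log2 scale (edgeR adjusted p = 0.0240). Other fits gave 0 to 34 such genes.

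Ccn1, a YAP and SRF target of the extracellular matrix, measured 954 and 950 CPM with DMSO and 1128 and 1225 CPM with SFN (log2 fold change 0.31, SE 0.057, edgeR adjusted p = 0.0231). Errfi1, which inhibits the EGF receptor, was called at 0.35 and Trib1, a pseudokinase, at 0.45. Kctd11, an adaptor of a Cullin ubiquitin ligase, was called at 0.58 and Tmcc3 at 0.33. The adjusted p of these 4 in edgeR was 0.0237, 0.0455, 0.00173 and 0.0440.

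**Figure D4:**
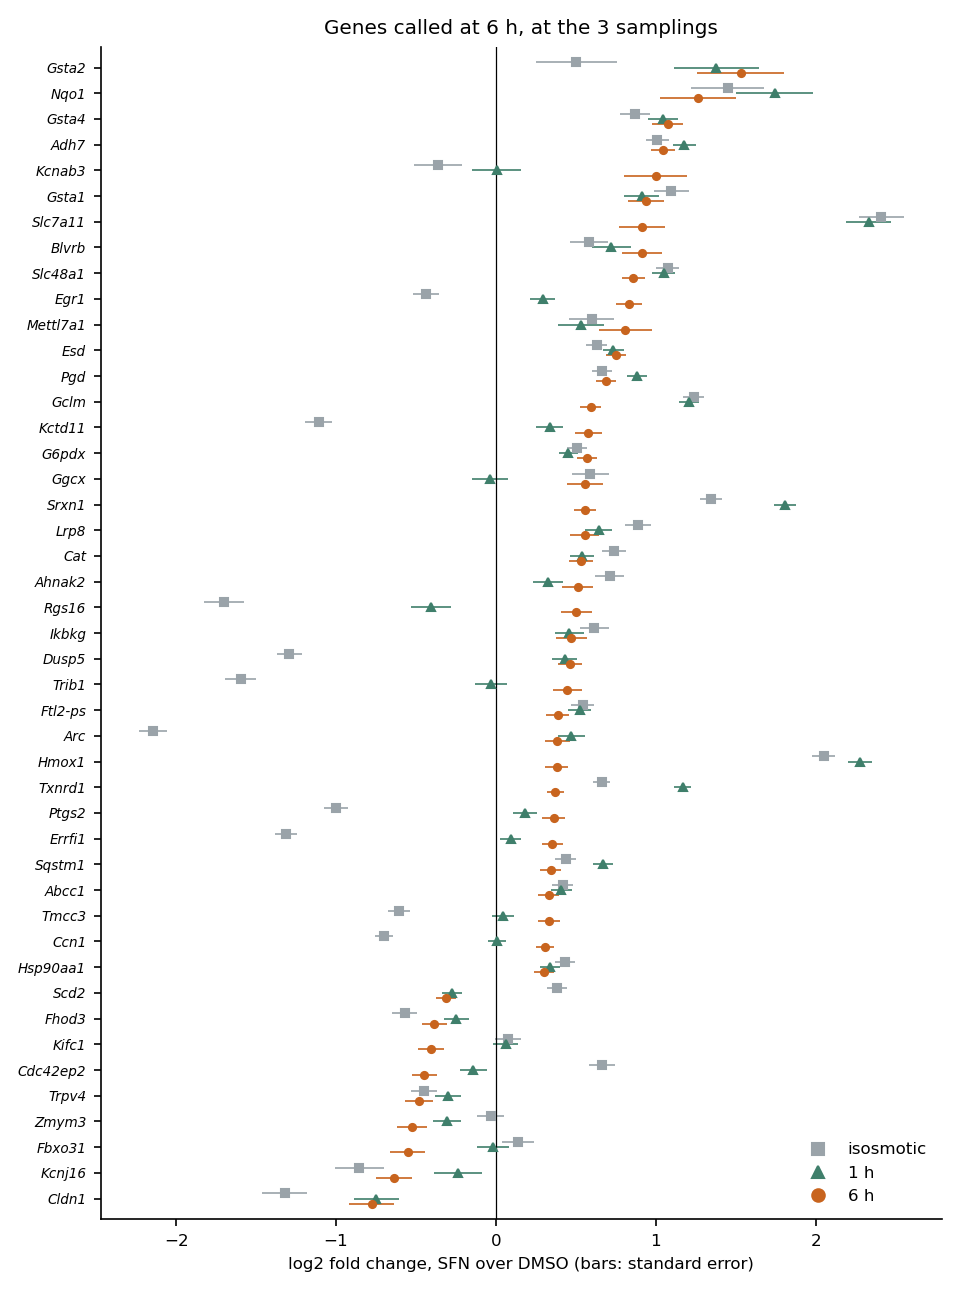
Log2 fold change of SFN over DMSO (bars: SE) for 45 of the 46 genes called at 6 h, under isosmotic conditions (squares), at 1 h (triangles) and at 6 h (circles). The 6 h values run from 1.53 (Gsta2) to -0.78 (Cldn1), and 12 genes, from Egr1 and Arc to Scd2 and Cdc42ep2, had a called isosmotic difference of the opposite sign.

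The remaining higher genes belonged to no list. Lrp8, a receptor of the LDL receptor family, measured 20.3 and 17.9 CPM with DMSO and 27.9 and 28.3 CPM with SFN (log2 fold change 0.55, SE 0.090, edgeR adjusted p = 0.00649). Ahnak2, a large scaffold protein, was called at 0.51, Ggcx, the vitamin K-dependent carboxylase, at 0.56, and Mettl7a1, a methyltransferase-like protein, at 0.81 (edgeR adjusted p = 0.0231, 0.0409 and 0.0409).

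Among the 10 lower genes were the epithelial membrane proteins Cldn1, Kcnj16 and Trpv4. Cldn1, a tight junction claudin, measured 18.1 and 21.1 CPM with DMSO and 13.1 and 9.69 CPM with SFN (log2 fold change -0.78, SE 0.14, edgeR adjusted p = 0.0208). Cldn1 had also been lower isosmotic, at -1.32, and at 1 h, at -0.75, and it was the 1 gene called lower at all 3 samplings. Kcnj16, an inward rectifier potassium channel subunit, measured 70.3 and 75.9 CPM with DMSO and 48.1 and 45.8 CPM with SFN (log2 fold change -0.64, SE 0.11, edgeR adjusted p = 0.0135), while isosmotic libraries of either treatment held 2.13 to 4.17 CPM. In DMSO cells Kcnj16 was 4.15 higher on the log2 scale after 6 h of stress than before it (edgeR adjusted p = 1.18e-15).

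Trpv4, an osmotically and mechanically gated calcium channel, measured 34.3 and 34.2 CPM with DMSO and 25.4 and 23.7 CPM with SFN (log2 fold change -0.48, SE 0.087, edgeR adjusted p = 0.0186), and -0.45 isosmotic. Cdc42ep2, an effector of the GTPase Cdc42, measured 102 and 113 CPM against 78.0 and 79.4 CPM (log2 fold change -0.45, SE 0.078, edgeR adjusted p = 0.0135), where SFN had raised it by 0.66 before stress. Scd2, a fatty acid desaturase, measured 339 and 317 CPM against 267 and 261 CPM (log2 fold change -0.31, SE 0.063, edgeR adjusted p = 0.0429), and it too had been higher isosmotic, at 0.38. Fhod3, a formin that assembles actin, was lower at -0.39 and had been lower isosmotic, at -0.57.

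The 3 lower genes with no earlier call were Fbxo31, a ubiquitin ligase substrate receptor, at -0.55, Zmym3, a chromatin-associated zinc finger protein, at -0.52, and Kifc1, a mitotic kinesin, at -0.41 (edgeR adjusted p = 0.0355, 0.0186 and 0.0440). In all 3 the SFN effect was lower at 6 h than isosmotic in the test of the difference (edgeR adjusted p = 0.00853, 0.0323 and 0.0197). The 3 were chosen by their calls at the samplings compared, and the 6 h libraries entered both tests. The difference is therefore given as a description. With any 1 of the 4 libraries left out, the count of lower calls was 0 to 4.

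Of 9 tested NFAT5 and osmolyte genes, 0 were called at 6 h in edgeR and 2 had an unadjusted p under 0.05, both higher, with a median log2 fold change of 0.13. With 0.243% of all genes called and 8.74% at an unadjusted p under 0.05, a count of 0 in a list of this size is near the background and is no result about the list. Trpv4 belongs to none of the osmotic lists counted here. Nfat5 measured 1043 and 891 CPM with DMSO and 1205 and 1018 CPM with SFN (log2 fold change 0.20, SE 0.17, edgeR adjusted p = 0.817), and the treatments overlapped. Akr1b3, the aldose reductase that makes sorbitol, measured 5522 and 5739 CPM against 5071 and 5438 CPM, a log2 fold change of -0.10 (SE 0.059, edgeR adjusted p = 0.676), beside an increase of 3.99 with stress in DMSO cells. Slc38a2, a sodium-coupled neutral amino acid transporter, measured 2101 and 1818 CPM against 2487 and 2372 CPM (log2 fold change 0.31, SE 0.085, edgeR adjusted p = 0.224), with the SFN libraries above. Slc38a2 was called higher without a filter, with only the 4 libraries compared and with the 8 hyperosmotic WT libraries (edgeR adjusted p = 0.000523, 0.0127 and 0.000533), and its adjusted p ran up to 1.00 with all 16 libraries.

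Of the 9 osmoprotective genes the study names in its text, 0 were called at 6 h and 0 had an unadjusted p under 0.05, again near the shares over all genes (0.243% and 8.74%). The glucose transporter Slc2a1, the member called higher at 1 h, measured 162 and 164 CPM with DMSO and 174 and 178 CPM with SFN (log2 fold change 0.11, SE 0.067, edgeR adjusted p = 0.681). Trpv1 was at 3.01 to 5.02 CPM in the 4 libraries, and Trpv2, Trpv3, Slc22a4, Slc38a8 and Slc5a10 were below 2 CPM in each of them. Of 19 genes of sodium and cell volume transport and 6 aquaporins, 0 were called, with 1 and 0 at an unadjusted p under 0.05.

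Heat shock and amino acid genes lost most of their earlier calls, as did genes at large. Of the 1570 genes higher isosmotic, 1.53% were called higher at 6 h. Over all genes 8.28% were called higher isosmotic, 0.411% at 1 h and 0.19% at 6 h. The effect was lower at 6 h than isosmotic in 2.04%. A count of 0 or 1 call at 6 h is thus no result about these lists. Of the 19 heat shock chaperones, 13 had been higher with SFN isosmotic and 6 at 1 h, and 1 was at 6 h, and 8 had a smaller effect than isosmotic in the test of the difference. Hspa1b, an inducible Hsp70, held 81.5 and 80.2 CPM with DMSO and 240 and 242 CPM with SFN before stress. After 6 h it held 2988 and 2983 CPM with DMSO and 2608 and 2916 CPM with SFN (log2 fold change -0.11, SE 0.058, edgeR adjusted p = 0.612). The levels of Hspa1b in both treatments were thus far above their isosmotic range, with the SFN libraries now below the DMSO libraries. Of 29 ATF4 targets and amino acid supply genes, 16 had been higher isosmotic and 6 at 1 h, and 0 were at 6 h, with 2 at an unadjusted p under 0.05 and 7 with a smaller effect than isosmotic.

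**Figure D5:**
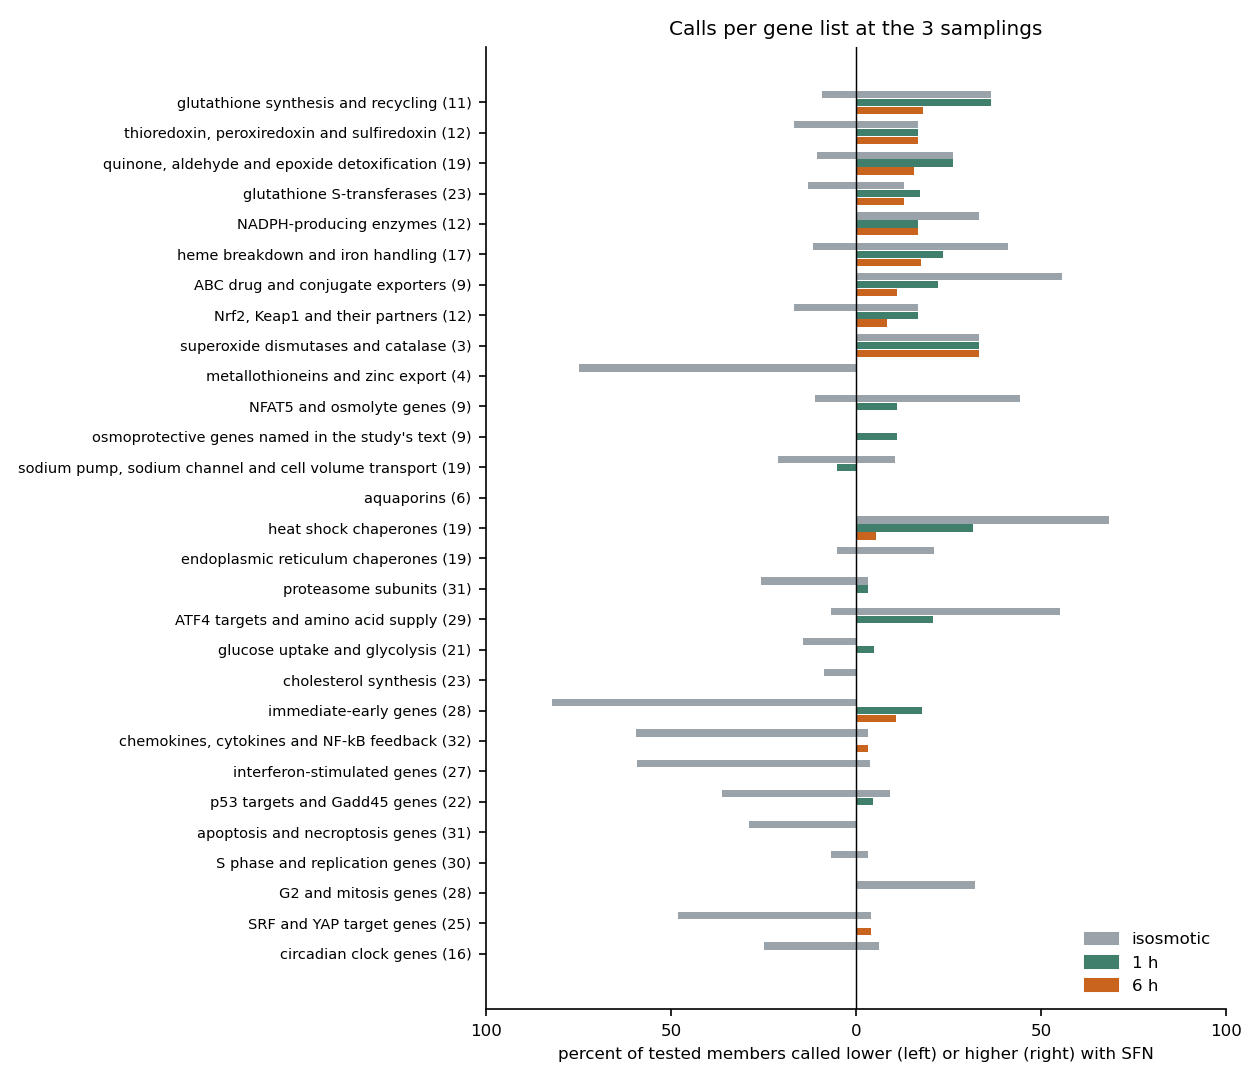
Percent of the tested members of each gene list (number tested in brackets) called higher (right) or lower (left) with SFN under isosmotic conditions, at 1 h and at 6 h. The 6 h bars stand in the antioxidant lists and with 1 to 3 genes in the heat shock, immediate-early, cytokine and SRF/YAP lists, and 0 of 540 list genes was called lower at 6 h in this fit of the 12 WT libraries.

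Over all lists 540 genes were tested and 24 were called at 6 h, all higher. Over all genes tested 0.19% were called higher and 0.0527% lower. The lists were chosen with earlier results of these data known, so the calls within them are a description and no independent result. Some list genes were called lower in other fits, with 48 higher and 6 lower for the 8 hyperosmotic WT libraries and 31 higher and 1 lower without a filter. Of the 24, 18 belonged to the 9 lists of antioxidant, detoxification, NADPH, heme, export and Nrf2 partner genes, and the other 6 were Hsp90aa1, Egr1, Dusp5, Arc, Ptgs2 and Ccn1.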

How the data were processed

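Total RNA was sequenced on the Illumina NovaSeq platform. The authors aligned reads to mm10 and deposited raw counts per gene symbol from featureCounts, 1 library at a time, without normalization. The aligner is Hisat2 in the study's methods and Bowtie2 in the submitters' processing notes. Versions, annotation and strand setting are not given in the sources used here, so reads shared by paralogs or overlapping genes may have been lost or divided. Blank lines with no gene name were dropped.

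In R 4.3.3, edgeR 4.0.16 was run on the 12 WT libraries with 1 coefficient for each of 6 conditions (6 residual degrees of freedom), after TMM normalization and filterByExpr, with the robust quasi-likelihood test and Benjamini-Hochberg adjusted p under 0.05 over all 18959 genes. CPM values were computed from the counts with TMM-scaled library sizes, and SE is the standard error of the log2 fold change. Contrasts of the SFN effect at 6 h with that isosmotic and at 1 h tested the change over time. Groups and replicate numbers came from the sample titles; the isosmotic SFN files carry the numbers 2 and 3 where the titles give 1 and 2, and the extraction protocol speaks of primary TEC where the other labels name mIMCD3. An exact two-sided permutation test of 2 against 2 libraries cannot give a p below 0.333. The edgeR p-values rest on the spread between replicate libraries, estimated over the 12 WT libraries together. Alternatives were DESeq2 1.42.0, RLE size factors, other filters, other sets of libraries, a replicate block, a 2-fold threshold and leaving out each library. The script was tested on simulated data.

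Genes named with values were the 12 with the largest called change in each direction that had a mean of at least 50 counts and libraries that did not overlap. Called members of each list (2 of the most abundant where none was called), genes the study's text names and regulators were named too. So were the 5 called genes with the smallest p per direction of each contrast over time. The other called genes were then added, and a few single genes that these rules name are left unreported. The genes, lists and tests were chosen with earlier results of these data known. Promoters came from RefSeq on GRCm38.p6 and gene positions from GENCODE M21, which may differ from the annotation used in counting.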

Additional observations from a re-analysis of the deposited data

Results flagged for a closer look

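The SFN effect differed between samplings in the direct test of that difference (edgeR, adjusted p under 0.05). Against isosmotic cells, the signed effect was higher at 6 h in 416 genes and lower in 387. Genes with a mean of at least 50 counts were ranked by p. The 5 smallest on the higher side were Arc (2.53 on the log2 scale), Bhlhe40 (2.26), Cldn4 (2.26), Lif (1.99) and F3 (1.80). Bhlhe40 is a basic helix-loop-helix repressor, Cldn4 a claudin, Lif a cytokine and F3 tissue factor. Each of these 5 had been lower with SFN before stress, and both SFN libraries lay above both DMSO libraries at 6 h, where Arc was called and Cldn4, Bhlhe40, F3 and Lif were not. Bhlhe40 was called higher at 6 h in 5 of 12 alternative fits, F3 in 2 and Lif in 1. On the lower side were Hspa1b (-1.69), Hmox1 (-1.67), Gclc (-1.14), Cdc42ep2 (-1.11) and the little-studied Ccdc117 (-1.09). Ccdc117 measured 83.5 and 81.9 CPM with DMSO and 81.6 and 82.9 CPM with SFN at 6 h, where the isosmotic libraries had stood apart at 41.2 and 39.6 against 82.7 and 87.9 CPM.

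Against 1 h, the effect was higher in 1 gene and lower in 13 in the fit of the 12 WT libraries. The split was 10 and 24 in DESeq2 and 34 and 44 with the 8 hyperosmotic WT libraries. The 1 gene was Rgs16 (0.91 on the log2 scale). Those with the smallest p on the lower side were Hmox1 (-1.90), Slc7a11 (-1.42), Srxn1 (-1.25), Gclc (-1.08) and Txnrd1 (-0.80). All 5 still had a positive log2 fold change at 6 h.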

How the results depend on the processing

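The direction of all 46 genes called at 6 h held in all 12 alternative fits, while the number called moved widely. In place of 46 it was 45 with RLE size factors, 53 with at least 10 counts in every WT library, 93 with DESeq2, 139 without a filter, 8 with all 16 libraries, 106 with only the 4 libraries compared, 4 at 2-fold or more, and 334 with the 8 hyperosmotic WT libraries, a fit chosen after seeing the data because the isosmotic pairs varied most. Leaving out 1 library gave 10 to 21. In place of 101 calls at 1 h these were, with DESeq2, no filter, all 16, only those compared, the 8 hyperosmotic libraries and 2-fold, 177, 198, 18, 809, 297 and 15, and 31 to 41 without 1 library. For the 14 genes whose effect differed between 6 h and 1 h they were 34, 39, 2, 78, 78 and 4, and 5 to 9. Of the 2875 isosmotic calls, all 16, only those compared and 2-fold gave 555, 1097 and 366, and leaving out 1 library 1333 (without DMSO replicate 2) to 3701. For the 803 genes whose effect differed between 6 h and isosmotic they gave 148, 456 and 201, and 438 (without DMSO replicate 2 at 6 h) to 1415 (without isosmotic SFN replicate 1). The 24 called list genes became 8 with all 16 libraries, 54 with the 8 hyperosmotic libraries and 10 to 14 without 1 library. The fits differ in the libraries that set the shared spread; the cause of each change was not tested.

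Replicate numbers did not pair the samples: the correlation of deviations over 15 pairs of WT conditions ran from -0.209 to 0.121, and was 0.094 between the 6 h groups. With the number as a block 38 genes were called at 6 h, all among the 46.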

Other observations

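At the background of 0.243% of genes called at 6 h, lists of about 30 genes or fewer would hold few or no calls, and 0 were called in edgeR among 27 interferon-stimulated genes, 23 cholesterol synthesis genes, 30 S phase genes, 28 G2 and mitosis genes, 31 proteasome subunits, 19 endoplasmic reticulum chaperones, 22 p53 targets, 31 apoptosis genes, 21 glucose genes, 16 clock genes and 4 metallothionein and zinc export genes. The counts at an unadjusted p under 0.05, higher and lower, were 1 and 4 for the interferon genes, 1 and 6 for cholesterol synthesis, 4 and 0 for S phase and 0 and 4 for G2 and mitosis, beside 8.74% of all genes in either direction. They were 5 and 1 for p53 targets, 4 and 0 for endoplasmic reticulum chaperones, 2 and 2 for apoptosis and 2 and 0 for glucose genes. For clock, proteasome and metallothionein genes they were 2 and 1, 1 and 0, and 1 and 1. The interferon genes had a median log2 fold change of -0.14, with 21 of 27 below 0, and 16 had been lower isosmotic. Of the cholesterol genes 18 lay below 0 (median -0.066), and of the S phase genes 22 lay above 0 (median 0.069). The counts of 0 belong to the fit of the 12 WT libraries. Among the apoptosis genes Cflar, at a log2 fold change of 0.32 in that fit, was called higher in 4 of 12 alternative fits and not in 8.

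Mt1, a zinc-binding metallothionein, measured 23.0 and 23.1 CPM with DMSO and 17.3 and 16.7 CPM with SFN at 6 h (log2 fold change -0.44, SE 0.14, edgeR adjusted p = 0.320), against a called difference of -1.90 isosmotic. Mt1 was called lower at 6 h without a filter and with the 8 hyperosmotic WT libraries (edgeR adjusted p = 0.0326 and 0.0382), and not in the other 10 alternatives, where the adjusted p ran from 0.0732 to 1.00.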
